A study of Homo sapiens with 6 samples.

Results

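The genes described here encode surface proteins through which a tumor cell restrains or alerts immune cells. They are 10 of the 34811 genes in the count table, found by their symbols. The list of symbols was drawn up with earlier results of these data known. It holds CD274 (PD-L1), PDCD1LG2 (PD-L2), CD276 (B7-H3), VTCN1 (B7-H4), CD47, PVR (CD155), PVRL2 (CD112, nectin-2), NT5E (CD73), ULBP2 and MICA. RNA-seq measured these genes in OVCAR-3 cells, an established human ovarian carcinoma line, that stably carry either a scrambled shRNA (OV3/SCR, COX-1 status wild-type) or an shRNA against COX-1 (OV3/COX1KD, COX-1 knockdown) in the same pRS HuSH-29 plasmid, grown in serum-containing RPMI medium under puromycin selection of the clones. Each condition had 3 libraries from separately harvested populations of 1 clone, so differences between the clones themselves cannot be told apart from those due to the shRNA, and p-values describe the spread between harvests. The question was how the genes of this group differed between COX-1 deficient and COX-1 proficient cells.

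PD-L1 and PD-L2 bind PD-1 on T cells and dampen their activation, and B7-H3 and B7-H4 belong to the same B7 family of ligands. CD47 binds SIRPα on macrophages and acts as a signal against phagocytosis, while PVR and PVRL2 are ligands of the activating receptor DNAM-1 (CD226) and the inhibitory receptor TIGIT on natural killer (NK) and T cells. CD73 turns extracellular AMP into adenosine, which restrains lymphocytes through adenosine receptors. MICA and ULBP2 are stress-induced ligands of NKG2D (KLRK1), an activating receptor of NK cells.

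Library totals lay between 25291505 and 27391538 counts, and the floor of 3 counts corresponded to 0.113 to 0.120 TMM-normalized CPM (counts scaled to library size, with edgeR's TMM factors between libraries). Floors cover counting error only, since PCR copies are not independent molecules, while the 95% intervals of fold changes come from the edgeR fit and include the spread between libraries. Within the knockdown group, OV3/COX1KD replicate 2 differed from the other knockdown libraries by a chi-square per degree of freedom of 4.44 and 5.74, against 1.81 between those, and without it the same 5 members were called in the same directions. The targeted gene PTGS1 was at 25.6 ± 1.02 CPM (SD, n = 3) in OV3/SCR and 18.8 ± 0.639 CPM (SD, n = 3) in OV3/COX1KD cells, 73.3% of the control (edgeR FDR = 1.3e-06). By mRNA the knockdown was thus partial, with a log2 fold change of -0.45. The study chose this clone for its stronger loss of COX-1 protein and reported less prostaglandin made from arachidonic acid than in control cells. All 7 serous carcinoma markers examined, such as PAX8, EPCAM and MUC16, were present, with 6 higher and 1 (PAX8) lower after knockdown and a summed level of 3616 to 3650 CPM in OV3/SCR and 5070 to 5234 CPM in OV3/COX1KD libraries. Over all 17309 tested genes, 25.8% were called higher and 22.1% lower. The 10 leukocyte markers summed to between 4.91 and 5.22 CPM in OV3/SCR and between 4.05 and 5.87 CPM in OV3/COX1KD libraries, with CD4 at 1 to 4, PTPRC at 2 to 8 and CD8A, the most abundant of them, at 66 to 103 counts per library, and none of the 3 tested was called. Of 6 fibroblast and endothelial markers, 5 had a row, 2 were tested and COL1A1 was lower, with sums of 10.3 to 11.1 CPM in OV3/SCR and 6.08 to 7.18 CPM in OV3/COX1KD libraries. The part of these markers in the results was not tested.

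Of the 10 genes, 9 passed the filter on low counts, with ULBP2 passing it through the OV3/SCR libraries alone. By edgeR's quasi-likelihood test at an FDR under 0.01, CD47 and PVRL2 were higher and MICA, ULBP2 and NT5E lower in OV3/COX1KD cells, while CD274, CD276, VTCN1 and PVR were not called. The 2 rises and 3 falls stand beside 25.8% of all 17309 tested genes called higher and 22.1% called lower, together 47.9%. With total count scaling, the share of calls that were rises over all genes moved from 53.9% to 41.0%, and the 5 genes stayed called in the same direction, with CD276 as a further fall. Beyond a log2 fold change of 0.5, 1 member was higher (9.87% of tested genes) and 3 were lower (10.0%). The median log2 fold change was -0.01 over the 9 tested members and -0.0087 over all tested genes. The libraries of the conditions did not overlap for the 5 called genes, a separation seen for 63.2% of tested genes.

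The start regions of the 5 genes that differed are shown because they allow the genes that moved in one direction to be set side by side. They are RefSeq sequences of GRCh38.p14, 250 bases before to 50 after the annotated start, while the read counts rest on hg19. Capitals mark matches, on either strand, to the GC box (GGGCGG), the CCAAT box (CCAAT) or the cyclic AMP response element (TGACGTCA), the element that CREB binds downstream of PGE2 receptors that raise cAMP. Matches to the core of the interferon-stimulated response element and to TATAAA were also searched and were absent from these 5 windows.
CD47 (higher, chr3:108090982-108091281, minus strand): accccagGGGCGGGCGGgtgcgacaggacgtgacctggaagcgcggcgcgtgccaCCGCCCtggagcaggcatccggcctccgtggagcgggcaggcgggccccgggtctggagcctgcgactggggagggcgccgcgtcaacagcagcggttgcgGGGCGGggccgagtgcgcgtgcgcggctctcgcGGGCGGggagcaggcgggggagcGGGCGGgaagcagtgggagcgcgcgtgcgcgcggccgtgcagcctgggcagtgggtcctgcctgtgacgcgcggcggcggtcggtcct
PVRL2 (higher, chr19:44846047-44846346, plus strand): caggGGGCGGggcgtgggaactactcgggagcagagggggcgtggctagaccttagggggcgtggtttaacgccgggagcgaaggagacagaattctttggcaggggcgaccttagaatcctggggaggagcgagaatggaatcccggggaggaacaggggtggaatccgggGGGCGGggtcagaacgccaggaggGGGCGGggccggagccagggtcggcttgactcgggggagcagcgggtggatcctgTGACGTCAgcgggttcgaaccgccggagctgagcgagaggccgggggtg
MICA (lower, chr6:31403345-31403644, plus strand): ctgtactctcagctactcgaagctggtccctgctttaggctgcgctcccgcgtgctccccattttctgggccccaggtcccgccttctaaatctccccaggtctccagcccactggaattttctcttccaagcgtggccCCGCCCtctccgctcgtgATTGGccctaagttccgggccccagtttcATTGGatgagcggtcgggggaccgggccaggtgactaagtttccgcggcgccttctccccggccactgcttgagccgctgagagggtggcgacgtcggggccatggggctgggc
ULBP2 (lower, chr6:149941764-149942063, plus strand): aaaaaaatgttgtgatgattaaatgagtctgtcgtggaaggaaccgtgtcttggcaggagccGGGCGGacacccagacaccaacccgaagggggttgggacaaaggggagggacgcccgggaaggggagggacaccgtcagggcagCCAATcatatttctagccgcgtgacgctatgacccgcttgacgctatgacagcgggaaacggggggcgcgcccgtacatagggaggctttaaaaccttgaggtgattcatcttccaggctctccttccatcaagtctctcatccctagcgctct
NT5E (lower, chr6:85449833-85450132, plus strand): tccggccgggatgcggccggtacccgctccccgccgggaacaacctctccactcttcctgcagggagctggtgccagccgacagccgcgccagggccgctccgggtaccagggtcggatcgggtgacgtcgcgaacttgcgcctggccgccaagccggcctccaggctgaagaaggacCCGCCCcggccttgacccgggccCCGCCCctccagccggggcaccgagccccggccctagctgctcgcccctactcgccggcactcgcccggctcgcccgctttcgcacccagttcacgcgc

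All 5 windows held the GC box, with 6 matches in CD47, 3 in PVRL2, 2 in NT5E and 1 each in MICA and ULBP2, where overlapping matches count separately. Of the members not called, CD274 and CD276 also held the GC box, while VTCN1 and PVR did not. The GC box was present in 44.9% of the 34796 distinct RefSeq windows searched in the same way. The CCAAT box was found in MICA (2 matches) and ULBP2 (1 match), in CD276 and VTCN1, which were not called, and in 34.6% of all windows. Among the members with a window, only PVRL2 held the full cyclic AMP response element, which was found in 1.84% of all windows. The window of CD274 held 2 matches to the interferon response core, found in 3.57% of all windows. These matches describe letters in the sequence and do not show that a factor binds there.

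CD47 was by far the most abundant gene of the group. Its read counts were 47037, 45823 and 45461 in OV3/SCR replicates 1 to 3 and 73853, 72928 and 80028 in the corresponding OV3/COX1KD libraries. Every knockdown library was above every control library. The level was 1761 ± 3.47 CPM (SD, n = 3) in OV3/SCR and 2950 ± 48.5 CPM (SD, n = 3) in OV3/COX1KD cells. This was a rise of 1.68-fold (log2 fold change 0.74, standard error 0.026, edgeR FDR = 7.7e-15). By CPM, CD47 (ENSG00000196776, GRCh37 chromosome 3, 107761938 to 107810709) ranked 31st of all genes in control and 17th in knockdown cells.

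Partners of CD47 were described from a list of 7 genes, of which 6 passed the filter, 4 were higher and 1 was lower. Beside this and each later list stand 25.8% of all tested genes called higher and 22.1% called lower. SIRPA, the receptor of CD47, rose from 25.6 ± 0.782 to 35.0 ± 1.64 CPM (SD, n = 3 each, log2 fold change 0.45, edgeR FDR = 4.1e-07). Calreticulin (CALR), which on the cell surface favors phagocytosis, rose from 600 ± 4.04 to 982 ± 6.61 CPM (SD, n = 3 each, log2 fold change 0.71, edgeR FDR = 2.1e-14). LRP1, a receptor of calreticulin, showed a rise from 36.9 ± 2.24 to 82.7 ± 13.7 CPM (SD, n = 3 each, log2 fold change 1.17, edgeR FDR = 3.6e-10). The fall was in THBS1 (thrombospondin-1), a secreted ligand of CD47 (log2 fold change -0.41, edgeR FDR = 4.6e-08), and the fourth rise was in QPCTL (0.30, edgeR FDR = 3.0e-04), the enzyme that modifies CD47 at its SIRPα-binding site. The mRNA of both the anti-phagocytic ligand and calreticulin was thus higher in the knockdown clone.

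**Figure D1:**
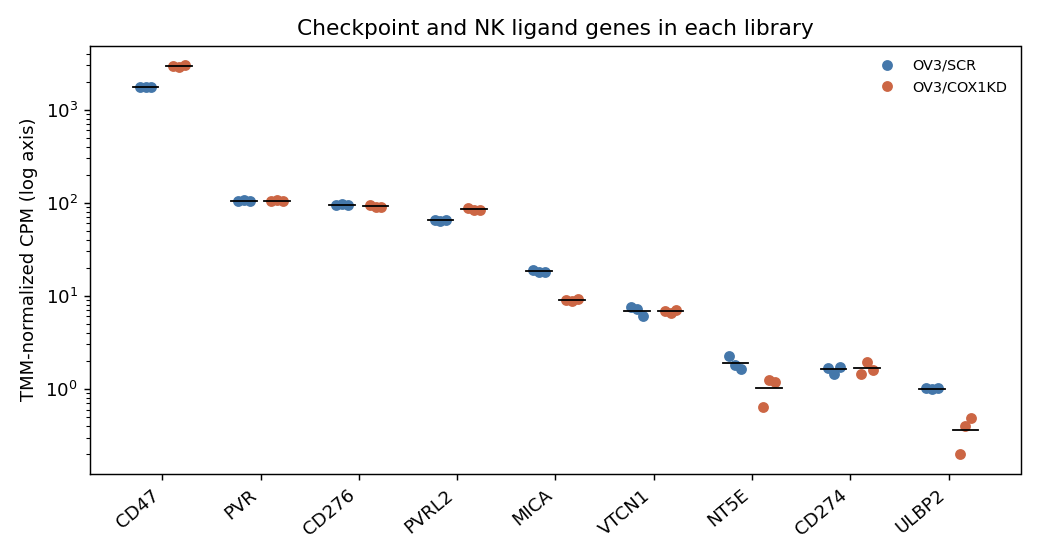
TMM-normalized CPM (log axis) of the 9 members that passed the filter, ordered by their level in OV3/SCR, with 1 point per library and a bar at the mean of 3 libraries. CD47 sits far above the other genes in all 6 libraries, and the groups are apart for CD47, PVRL2, MICA, NT5E and ULBP2.

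The ligands of DNAM-1 and TIGIT differed from each other in their response. PVRL2 (ENSG00000130202, GRCh37 chromosome 19, 45349432 to 45392480) gave 1742, 1681 and 1678 reads in control and 2200, 2121 and 2248 in knockdown libraries. It rose from 64.9 ± 0.420 to 85.5 ± 1.68 CPM (SD, n = 3 each), a 1.32-fold difference (log2 fold change 0.40, standard error 0.036, edgeR FDR = 1.0e-08). The rise was below the log2 step of 0.5, and all 3 knockdown libraries were above the controls. PVR (ENSG00000073008, chromosome 19 from 45147098 to 45169430) lies 180 kb from PVRL2 and had 2809, 2763 and 2677 control counts against 2650, 2706 and 2776 knockdown counts. Its libraries overlapped between conditions. The level of PVR was 105 ± 1.28 and 106 ± 1.95 CPM (SD, n = 3 each), with a 95% interval of the log2 fold change from -0.06 to 0.08 (edgeR FDR = 0.787).

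Each library held more PVR than PVRL2 reads, and the excess was smaller after knockdown. Per kilobase of annotated exon, PVRL2 stood above PVR, at 17.4 against 10.1 in OV3/SCR and 22.8 against 10.1 CPM per kb in OV3/COX1KD cells. Counts of PVR per count of PVRL2 were 1.61, 1.64 and 1.60 in OV3/SCR and 1.20, 1.28 and 1.23 in OV3/COX1KD libraries. The mean log2 ratio was 0.69 ± 0.022 against 0.31 ± 0.042 (SD, n = 3 each, two-sided exact permutation p = 0.10, the smallest p that 3 against 3 libraries allow). As PVR was not called, the lower ratio restates the rise of PVRL2 and is no separate result. An annotated gene with no row in the table covers 19.5% of the exon length of PVR on the same strand, and exons of an antisense lncRNA cover 3.42% of that of PVRL2, so reads there cannot be assigned to 1 gene.

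Of the 6 other nectins, nectin-like molecules and their receptor on the list, 5 passed the filter, 2 were higher and 1 was lower. PVRL3, a nectin that pairs with other nectins at adherens junctions, rose from 106 ± 1.24 to 135 ± 11.2 CPM (SD, n = 3 each, log2 fold change 0.35, edgeR FDR = 1.6e-06). PVRL4 rose from 10.6 ± 0.711 to 14.2 ± 0.485 CPM (SD, n = 3 each, log2 fold change 0.42, edgeR FDR = 6.1e-05). CADM1, the nectin-like ligand of CRTAM on NK and CD8 T cells, fell from 6.91 ± 0.722 to 1.35 ± 0.207 CPM (SD, n = 3 each, log2 fold change -2.35, edgeR FDR = 6.6e-11). CADM1 and the 3 nectins that moved thus went in different directions. PVRL1 (log2 fold change -0.072, edgeR FDR = 0.134) passed the threshold only with total count scaling. CADM4 (0.19 on the log2 scale, edgeR FDR = 0.0107) passed it with no filter, with the replicate block or without OV3/SCR replicate 2 or OV3/COX1KD replicate 2. CRTAM had 2 to 7 counts per library and was not tested.

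Both NKG2D ligands of the group were lower after COX-1 knockdown. MICA (ENSG00000204520, GRCh37 chromosome 6, 31367561 to 31383092) gave 512, 472 and 466 reads in OV3/SCR and 226, 223 and 249 in OV3/COX1KD libraries. Its level fell from 18.4 ± 0.658 to 9.08 ± 0.238 CPM (SD, n = 3 each), to 49.2% of the control (log2 fold change -1.02, standard error 0.069, edgeR FDR = 1.6e-10). ULBP2 (ENSG00000131015, chromosome 6 from 150263150 to 150270371) was scarce, with 27, 26 and 26 counts in control and 5, 10 and 13 in knockdown libraries. The fall of ULBP2 from 1.01 ± 0.00756 to 0.362 ± 0.148 CPM (SD, n = 3 each) left 36.5% of the control (95% interval of the fold 0.232 to 0.575, log2 fold change -1.45, standard error 0.31, edgeR FDR = 5.2e-04). All knockdown libraries of both genes were below all controls. ULBP2 passed the filter through the OV3/SCR libraries alone. Its control counts lay closer together than counting error predicts, so the control SD understates the error.

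The other ligands of NKG2D were 6 genes on the list, of which 5 passed the filter, 2 were lower and none was higher. MICB, the close relative of MICA, had 174, 155 and 156 counts in control and 66, 88 and 101 in knockdown libraries, a fall from 6.17 ± 0.312 to 3.31 ± 0.610 CPM (SD, n = 3 each, log2 fold change -0.90, edgeR FDR = 7.1e-06). RAET1L (ULBP6) had 13, 11 and 20 against 2, 3 and 2 counts, with 16.3% of the control left (exact interval 6.18% to 36.4% for counting error only, edgeR FDR = 1.5e-04). Its knockdown counts were at or under the floor of 3, and it passed the filter through the OV3/SCR libraries alone. ULBP1 (log2 fold change -0.11, 95% interval -0.40 to 0.18, edgeR FDR = 0.528) and ULBP3 (0.21, 95% interval -0.09 to 0.52, edgeR FDR = 0.215) were not called. RAET1E, with 4 to 17 counts per library, was not called (edgeR FDR = 0.154), and RAET1G, with 1 to 7 counts, was not tested. The MIC genes and ULBP2 fell, RAET1L fell to counts at or under the floor, and ULBP1 and ULBP3 overlapped between conditions.

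**Figure D2:**
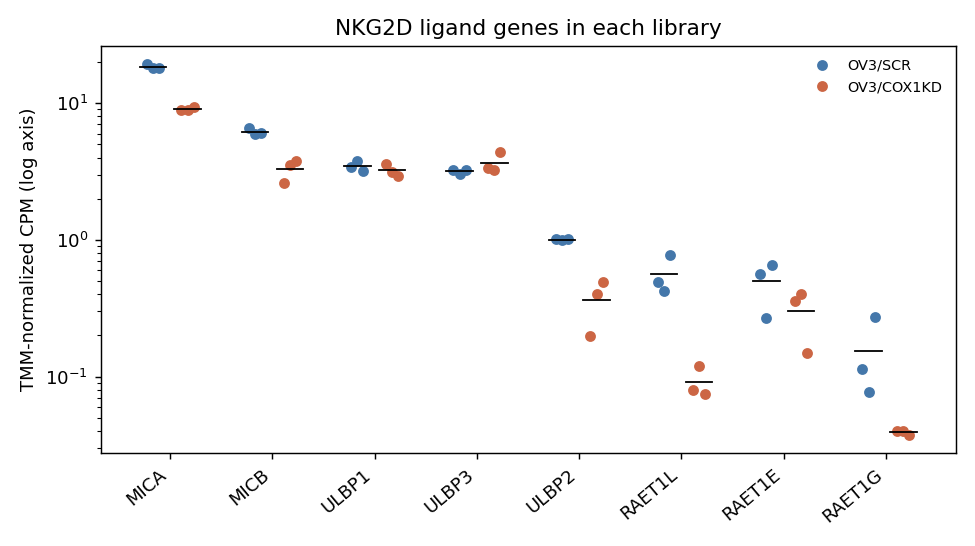
TMM-normalized CPM (log axis) of the 8 NKG2D ligand genes, with 1 point per library and a bar at the mean of 3 libraries per condition. MICA, MICB, ULBP2 and RAET1L are lower in all 3 OV3/COX1KD libraries, while ULBP1 and ULBP3 lie between 2.93 and 4.43 CPM in all 6 libraries and the lowest points of RAET1G are single counts.

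Summed over the 8 NKG2D ligand genes, the level was 34.6, 32.7 and 33.2 CPM in OV3/SCR and 19.2, 19.8 and 21.2 CPM in OV3/COX1KD replicates 1 to 3. MICA made up 54.3% to 55.5% of these reads in control and at most 46.7% in knockdown libraries. Neither value overlapped between the conditions. Some of these genes are near copies of each other. Of the windows of 50 bases in the longest ULBP2 transcript, 32.6% also occurred in another gene and 29.7% occurred in RAET1L, so the calls of ULBP2 and RAET1L may share reads. For MICA this share was 3.57%, with 2.04% in MICB.

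Release of NKG2D ligands from the surface is carried out by metalloproteinases, and 5 genes of this process were examined. All 5 passed the filter, 2 were higher and none was lower. PDIA6 (ERp5), the disulfide isomerase that assists MICA shedding, rose from 261 ± 1.87 to 412 ± 3.51 CPM (SD, n = 3 each, log2 fold change 0.66, edgeR FDR = 1.1e-13). ADAM17, a metalloproteinase that cleaves such ligands, was at 70.4 and 85.3 mean CPM (log2 fold change 0.28, edgeR FDR = 2.9e-06). Shedding itself was not measured.

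NT5E was also lower in OV3/COX1KD cells, at low counts. NT5E (ENSG00000135318, GRCh37 chromosome 6, 86159302 to 86205509) gave 60, 47 and 42 reads in control and 16, 31 and 32 in knockdown libraries. It fell from 1.89 ± 0.323 to 1.02 ± 0.337 CPM (SD, n = 3 each), to 54.3% of the control (95% interval of the fold 0.385 to 0.767, log2 fold change -0.88, standard error 0.24, edgeR FDR = 0.00353). The knockdown libraries lay below the controls, the lowest being OV3/COX1KD replicate 1. The call of NT5E was lost without OV3/COX1KD replicate 1 (edgeR FDR = 0.0276), OV3/SCR replicate 1 (edgeR FDR = 0.0297) or OV3/SCR replicate 2 (edgeR FDR = 0.0119).

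Around CD73, 17 genes for the handling of extracellular ATP and adenosine were examined, of which 14 passed the filter, 7 were higher and 1 was lower. Over all tested genes, 25.8% were higher and 22.1% lower. ENTPD1 (CD39), which supplies AMP to CD73, fell from 26.7 ± 0.753 to 21.8 ± 0.570 CPM (SD, n = 3 each, log2 fold change -0.29, edgeR FDR = 1.0e-04). ENTPD2, another ATP-cleaving ectoenzyme, rose (log2 fold change 0.66, edgeR FDR = 1.1e-08), as did the phosphatase ALPL, which can also release adenosine from AMP, from 15.8 ± 0.271 to 38.7 ± 0.933 CPM (SD, n = 3 each, log2 fold change 1.29, edgeR FDR = 6.3e-14). The nucleoside transporter SLC29A1 (log2 fold change 0.57, edgeR FDR = 1.5e-09) and the adenosine receptor ADORA2B (0.54, edgeR FDR = 0.00132) were higher. The adenosine receptor ADORA1 was also higher (log2 fold change 0.53, edgeR FDR = 1.1e-10). It was more abundant, at 71.2 ± 0.344 and 103 ± 2.30 CPM against 3.57 ± 0.575 and 5.22 ± 0.297 CPM for ADORA2B (SD, n = 3 each). ADORA2B lost its call without OV3/SCR replicate 3 (edgeR FDR = 0.0127). ADORA2A, the adenosine receptor of T cells, had 0 to 5 counts and was not tested.

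The B7 ligands of the group did not pass the threshold. CD276 (ENSG00000103855, GRCh37 chromosome 15, 73976307 to 74006855) gave 2533, 2535 and 2449 reads in OV3/SCR and 2413, 2278 and 2426 in OV3/COX1KD libraries, and its libraries overlapped. Its level was 95.7 ± 1.39 and 92.6 ± 2.83 CPM (SD, n = 3 each, log2 fold change -0.047, 95% interval -0.12 to 0.03, edgeR FDR = 0.261). Only with total count scaling was CD276 called (log2 fold change -0.12, edgeR FDR = 0.00422). VTCN1 (ENSG00000134258, chromosome 1 from 117686209 to 117753582) had 201, 186 and 157 control counts and 173, 165 and 190 knockdown counts, 6.92 ± 0.758 and 6.86 ± 0.274 CPM (SD, n = 3 each). Its 95% interval of the log2 fold change ran from -0.22 to 0.20 (edgeR FDR = 0.930).

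CD274 (ENSG00000120217, GRCh37 chromosome 9, 5450503 to 5470566) was low, with 45, 38 and 44 counts in OV3/SCR and 36, 49 and 42 in OV3/COX1KD libraries. The libraries were interleaved. The level was 1.62 ± 0.137 and 1.65 ± 0.271 CPM (SD, n = 3 each), and at this depth the 95% interval of the log2 fold change was wide, from -0.37 to 0.44 (edgeR FDR = 0.897). PDCD1LG2 (ENSG00000197646, chromosome 9, 5510531 to 5571282), which lies 39964 bases from CD274, had 1 read in OV3/COX1KD replicate 1 and 0 in the other 5 libraries. All were under the floor of 3 counts, so no fold is given and a difference was not detectable at this depth.

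**Figure D3:**
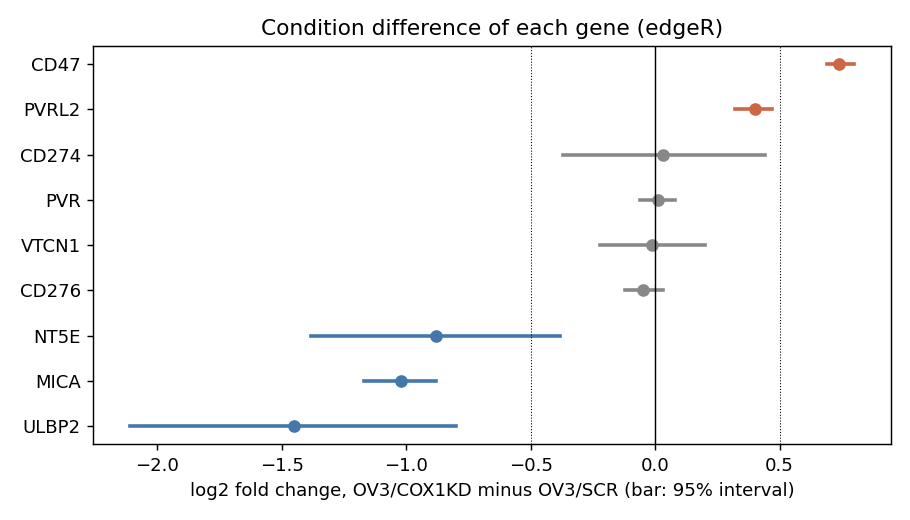
Log2 fold change (OV3/COX1KD minus OV3/SCR) of the 9 tested members with 95% intervals from edgeR, orange where higher, blue where lower and gray where not called at an FDR under 0.01, with dotted lines at a log2 fold change of 0.5 in each direction. CD47 lies at 0.74 and ULBP2 at -1.45, and the interval of CD274 reaches from -0.37 to 0.44.

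Of 13 other B7 and butyrophilin ligands, 9 passed the filter and 1, BTN2A1, was called, lower and within the step (log2 fold change -0.37, edgeR FDR = 2.3e-04). CD80 and CD86, the costimulatory ligands of CD28, had 1 to 3 and 0 to 2 counts per library and were not tested. The route from interferon-γ to PD-L1 was covered by 11 genes, all tested, of which 4 were higher and 4 lower (25.8% and 22.1% over all tested genes). IRF1, the transcription factor that drives CD274 after interferon, fell from 15.9 ± 0.493 to 8.08 ± 0.430 CPM (SD, n = 3 each, log2 fold change -0.98, edgeR FDR = 9.8e-10), and JAK1 fell from 88.5 ± 3.37 to 60.3 ± 3.02 CPM (SD, n = 3 each, log2 fold change -0.55, edgeR FDR = 9.4e-10). JAK2, a neighbor of CD274 on chromosome 9, was lower (log2 fold change -0.32, edgeR FDR = 0.00279), a call lost without OV3/SCR replicate 1 or 3 (edgeR FDR = 0.0167 and 0.0136), without OV3/COX1KD replicate 3 (edgeR FDR = 0.0136) or in DESeq2 (adjusted p = 0.0130). The interferon-γ receptor subunits went in opposite directions, with IFNGR1 lower (log2 fold change -0.30, edgeR FDR = 3.1e-06) and IFNGR2 higher (0.46, edgeR FDR = 4.3e-07). CMTM4, which stabilizes PD-L1 protein, rose from 142 ± 1.64 to 244 ± 18.8 CPM (SD, n = 3 each, log2 fold change 0.78, edgeR FDR = 5.7e-12), and smaller rises were called in STAT3 (0.23, edgeR FDR = 4.9e-05) and CMTM6 (0.14, edgeR FDR = 4.5e-04), the latter not called with total count scaling (edgeR FDR = 0.0890).

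Ligands of other inhibitory or NK receptors were 15 genes, of which 12 passed the filter, 1 was higher and 2 were lower. CD200, a ligand that restrains myeloid cells, rose from 41.2 ± 1.25 to 68.7 ± 2.43 CPM (SD, n = 3 each, log2 fold change 0.74, edgeR FDR = 1.3e-11). NCR3LG1 (B7-H6), the ligand of the activating NK receptor NKp30, was lower (log2 fold change -0.65, edgeR FDR = 0.00163), a call lost without OV3/COX1KD replicate 1 (edgeR FDR = 0.0110). LGALS9 (galectin-9), a ligand of TIM-3, was lower at 33 to 66 counts per library (log2 fold change -0.69, edgeR FDR = 0.00340), and this call was lost without OV3/SCR replicate 1 or 2 (edgeR FDR = 0.0177 and 0.0138), without OV3/COX1KD replicate 3 (edgeR FDR = 0.0241) and in DESeq2 (adjusted p = 0.0131).

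The receptors that immune cells use for these ligands were scarce, apart from SIRPA. The next most abundant on the list was LAG3, with 24 to 59 counts per library (log2 fold change -0.65, edgeR FDR = 0.0144, not called). Of 17 on the list, 12 had a row in the table, 7 passed the filter and 1, SIRPA, was called. TIGIT and CD226 had 1 count each in 1 of 6 libraries, and KLRK1 had 2 to 9 counts per library. PDCD1 (PD-1) had 6 to 16 counts (log2 fold change 0.53, edgeR FDR = 0.251) and CD96 had 5 to 16 (log2 fold change -0.52, edgeR FDR = 0.248). Across all 9 lists together, with each gene counted once, 73 of 95 genes were tested, 20 were higher (against 25.8% of all genes) and 12 were lower (against 22.1%). With total count scaling 18 were higher and 19 lower, beside 3466 higher and 4978 lower (28.8%) of the 17309 tested genes under that scaling, and without OV3/COX1KD replicate 2 the counts were 24 and 16, beside 27.2% and 23.2% of all genes. In bulk RNA a lower level can mean fewer cells with the transcript or less of it per cell, and these cannot be told apart.

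**Figure D4:**
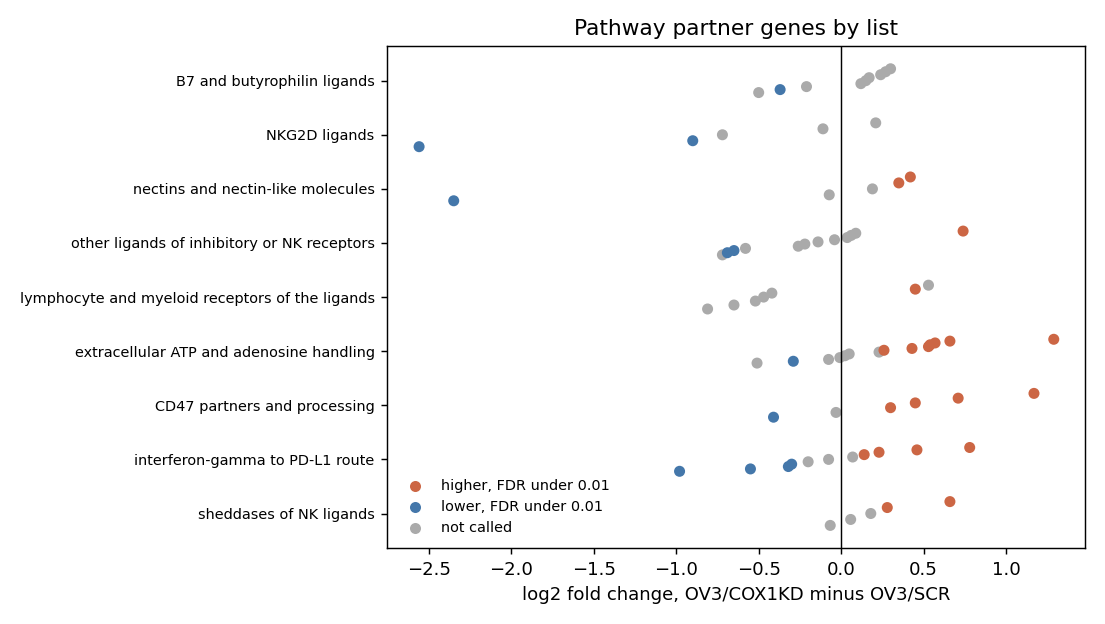
Log2 fold change (OV3/COX1KD minus OV3/SCR) of the tested genes in the 9 lists of partner genes, 1 point per gene, orange where higher, blue where lower and gray where not called at an FDR under 0.01. The lowest points are RAET1L at -2.56 and CADM1 at -2.35, and the highest is ALPL at 1.29. RAET1L had knockdown counts at or under the floor of 3 and passed the filter through the OV3/SCR libraries alone, so the size of its fall is uncertain.

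Per kilobase of annotated exon, the order in OV3/SCR cells began with CD47 at 214 ± 0.421 CPM per kb (SD, n = 3), at or above 99.4% of the 16800 tested genes with a known length. CD276 at 17.5 ± 0.254 and PVRL2 at 17.4 ± 0.112 CPM per kb (SD, n = 3 each) overlapped in their libraries. PVR, MICA, VTCN1 and ULBP2 came next at 10.1, 4.79, 2.29 and 0.753 CPM per kb, each apart from its neighbors. NT5E at 0.418 ± 0.0711 and CD274 at 0.393 ± 0.0333 CPM per kb (SD, n = 3 each) overlapped, and PDCD1LG2 was last. In OV3/COX1KD cells PVRL2 at 22.8 ± 0.450 CPM per kb stood above CD276 at 16.9 ± 0.516 CPM per kb (SD, n = 3 each) without overlap. MICA at 2.36 ± 0.0619 overlapped with VTCN1 at 2.27 ± 0.0904 CPM per kb (SD, n = 3 each). At the low end, CD274 at 0.403 CPM per kb overlapped with ULBP2 at 0.271, and ULBP2 with NT5E at 0.226 CPM per kb. The length used joins all annotated exons of a gene, 3851 bases for MICA and 3027 for VTCN1. The longest transcripts of MICA and VTCN1 have 2260 and 2719 bases, so the order and the overlaps can change with the length used.

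MICA, ULBP2 and NT5E all lie on chromosome 6, far apart from each other. Over the tested genes of chromosome 6 whose average log2 CPM reached 1, the median log2 fold change was 0.03. Within 1 Mb of MICA, 58 such genes had a median of -0.11, ranging from -0.90 to 0.62. Near ULBP2 the median of 14 genes was -0.02, and near NT5E that of 3 genes was 0.33. The 8 neighbors of CD47 had a median of 0.05 and a highest value of 0.41, below that of CD47. The 48 neighbors of PVRL2 had a median of -0.05, ranging from -0.80 to 1.21.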

How the data were processed

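The deposited table holds raw counts per gene, not normalized, for 3 OV3/SCR and 3 OV3/COX1KD libraries. Per the labels and the study's methods, the authors used TopHat2 for alignment (hg19) and HTSeq for counting. The gene annotation and the strand setting are not given in the sources used here. The TruSeq kit named in the labels does not mark strand. Counts were analysed with edgeR 4.0.16 in R 4.3.3: filterByExpr (17309 of 34811 genes kept), TMM scaling, glmQLFit and glmQLFTest on a design of the condition alone, and Benjamini-Hochberg adjustment over every kept gene. Genes with FDR under 0.01 were called, and 0.5 on the log2 scale served as a second step. Standard errors are the size of the log2 fold change divided by the square root of F, and 95% intervals use the test's degrees of freedom. Library pairs of one condition differed by a chi-square per degree of freedom of 1.74 to 5.74, more than counting noise, and each library was kept as 1 replicate.

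Positions and exon lengths came from GENCODE 44 lifted to GRCh37 (33556 genes matched by identifier), and promoters from RefSeq. Of the 10 members, 9 had a promoter entry. Other settings tried were DESeq2 1.42.0, scaling by RLE or by total counts alone, the table unfiltered or with 10 counts required of each library, the replicate number as a block, and leaving out each library. The edgeR script was tested on simulated data. The members and gene lists were chosen with earlier results of these data known. Named outside the members are PTGS1, all measured NKG2D ligands and nectins, in each list the called genes beyond 0.5 (at most the 4 largest), CD80, CD86, PDCD1, TIGIT, CD226, CD96, KLRK1, SIRPA, ENTPD1, ADORA2A, ADORA2B and JAK2. The cell type markers named (EPCAM, PAX8, MUC16, PTPRC, CD4, CD8A and COL1A1) and BTN2A1, THBS1, QPCTL, ADAM17, IFNGR1, IFNGR2, STAT3, CMTM6, ADORA1 and LAG3 were picked from their lists after their values were seen.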

Additional observations from a re-analysis of the deposited data

How the results depend on the processing

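Among the 107 differences of the 9 tested members recomputed under other settings, 94 kept their direction and their side of the threshold, 3 lost a call (NT5E, with a library left out), 1 gained one (CD276 with total count scaling) and 9 changed sign, all in genes that were not called in either setting. The sign changes were -0.0459 for CD274 and -0.0667 for PVR with total count scaling, 0.0110 for VTCN1 with no filter, and -0.00591 for PVR with at least 10 counts in every library. With 1 library left out, CD274 ranged from -0.0958 to 0.125 and VTCN1 from -0.0929 to 0.0578 on the log2 scale. The log2 fold change of CD47 ranged from 0.67 to 0.77, of PVRL2 from 0.32 to 0.42, of MICA from -1.10 to -0.99, of ULBP2 from -1.73 to -1.17 and of NT5E from -1.02 to -0.63. Among partner genes, the number called lower rose from 12 to 19 with total count scaling (28.8% of all genes were lower there), in which the median log2 fold change of all genes was -0.087. Of the NKG2D ligands, ULBP2, RAET1L, RAET1E and RAET1G did not pass the filter of 10 counts in every library. The labels speak of replicate pairs without saying that the numbers mark them, and same-numbered libraries deviated from their condition means with correlations from -0.00308 to 0.0524. With the replicate block, 2 members were higher and 3 lower, and 21 partner genes were higher and 12 lower, against 19 and 10 in DESeq2. With 1 library left out, partner genes called higher ranged from 18 to 24 and lower from 10 to 16, the upper values without OV3/COX1KD replicate 2. The depth limits what can be said of PDCD1LG2, CD274 and the scarce NKG2D ligands.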
